A study of Mus musculus with 8 samples.

Results

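Hox genes encode homeodomain transcription factors that give cells their position along the head-to-tail axis. All features whose symbol was Hoxa, Hoxb, Hoxc or Hoxd followed by a number were taken, which gave 39 of the 32285 features counted: 11 of the Hoxa cluster, 10 of Hoxb, 9 of Hoxc and 9 of Hoxd. They were counted by single-nucleus RNA sequencing in the petrous temporal bone (PTB), which houses the inner ear, and in the paraflocculus and flocculus of the cerebellum (PF/F), which lie against it. The 8 libraries came from mice at postnatal day 5.5, wild type (WT) or heterozygous for a germline loss of Tbx1 (Tbx1+/-), with 2 libraries for each tissue and genotype. Each library held nuclei pooled from 5 mice, and the replicate numbers 1 and 2 were taken as the study's 2 batches of animals. A unique molecular identifier (UMI) marks 1 captured RNA molecule, and a level is given as CPM, the UMIs of a gene per 1000000 UMIs of the nuclei summed. The deposited annotation puts 31076 PTB nuclei in 15 types, all of connective tissue (CT), chondrocyte progenitors (CP), chondrocytes, osteoblasts or osteoclasts, and 48237 PF/F nuclei into 16 types. The other barcodes, 32101 in the PTB and 9721 in the PF/F, were outside this annotation and were counted as pools of their own. The study also named immune and nerve cells in the bone, so the PTB pool can hold nuclei that it annotated.

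The members lie in 4 clusters on separate chromosomes (Hoxa on chromosome 6, Hoxb on 11, Hoxc on 15 and Hoxd on 2) and are numbered by paralog group from 1 at the 3′ end to 13 at the 5′ end. Low-numbered groups reach farther towards the head than high-numbered ones. In the hindbrain the first rhombomere, from which granule neurons of the cerebellum arise, is free of Hox expression, while Hoxa2 and Hoxb2 reach the rhombomeres just behind it. Neural crest of the second pharyngeal arch carries Hoxa2, which sets the identity of that arch's skeleton, and crest of the first arch does not. Osteoclasts are of blood origin.

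Depth per library was 66835028 to 88677309 UMIs over 11906 to 21868 barcodes in the PTB and 44713226 to 60627200 UMIs over 10583 to 17103 barcodes in the PF/F. Any 2 libraries shared 35 to 94 barcodes. Osteoblast markers summed to 3038 to 4514 CPM in annotated PTB nuclei and to 3.02 to 4.2 CPM in annotated PF/F nuclei, and granule neuron markers to 40.5 to 52.8 and 805 to 1183 CPM. Tbx1, the gene deleted on 1 allele, was at 38.9 CPM in WT and 26.3 CPM in Tbx1+/- annotated PTB nuclei of batch 1, and at 39.4 and 35.7 CPM in batch 2. It was lower in Tbx1+/- in both batches, but the difference did not pass the test (log2 difference −0.34 ± 0.167 SE, n = 2 against 2, edgeR quasi-likelihood adjusted p = 1).

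Hox RNA was sparse in both tissues. A total of 2894 Hox UMIs were counted in the series, and 8 members had none (Hoxa6, Hoxa11, Hoxa13, Hoxc10, Hoxc11, Hoxc12, Hoxd11 and Hoxd12), which allows a level of up to 0.00593 CPM over all barcodes, counting error only. In annotated PTB nuclei 28 members had at least 1 UMI and 12 had 10 or more. Outside the annotation of the PTB these numbers were 25 and 17, in annotated PF/F nuclei 25 and 5, and in PF/F barcodes outside the annotation 18 and 2. Of annotated PTB nuclei, 3.2% held a Hox UMI (993 of 31076, median depth 4257 UMIs), and of annotated PF/F nuclei 0.46% (222 of 48237, median depth 3034 UMIs). Thinned to 2000 UMIs per nucleus, the shares were 1.47% of 30022 and 0.281% of 41342 nuclei.

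The map of members by cell type shows the Hox RNA of the PTB resting on the paralog groups 2 and 3.

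**Figure D1:**
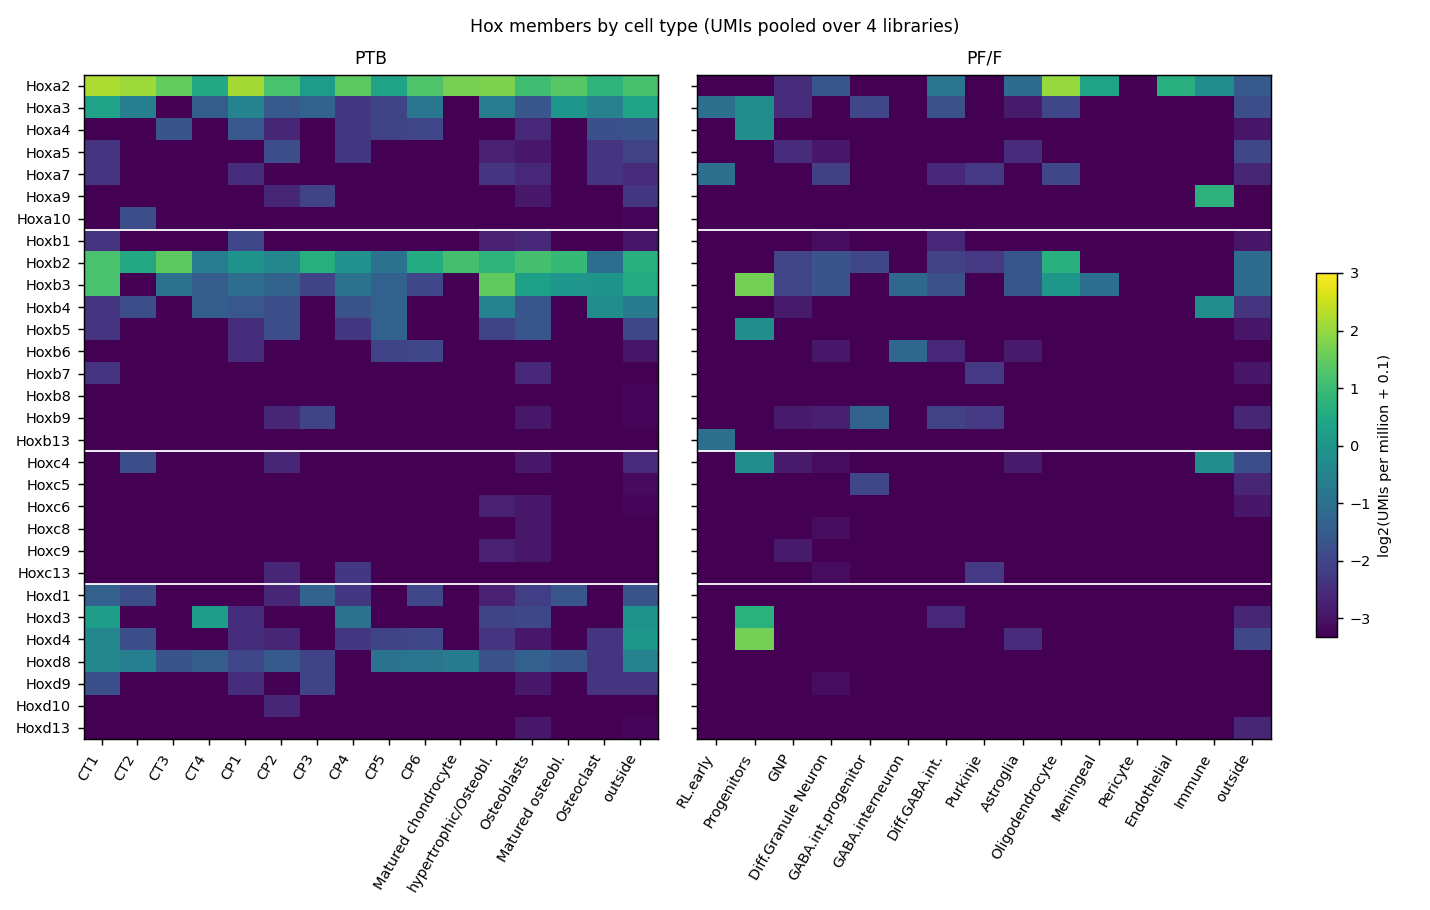
Level of 30 of the 31 members with a UMI (1 row each, ordered by cluster and paralog number, white lines between clusters) in the annotated types of the PTB (left) and 14 of the 16 of the PF/F (right) and in barcodes outside the annotation, as log2 of CPM + 0.1 pooled over 4 libraries. Hoxa2, Hoxb2 and Hoxb3 form the bright rows of the PTB, and in the PF/F the brightest squares shown lie in Oligodendrocyte and Progenitors.

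In annotated PTB nuclei the 5 members of groups 2 and 3 held 79.3% of the 1070 Hox UMIs (exact binomial 95% interval 76.7 to 81.6%). Group 1 held 4.49%, groups 4 and 5 held 9.16%, groups 6 to 8 held 5.33%, and the 16 members of groups 9 to 13 together held 19 UMIs, 1.78%. Of the clusters, Hoxa held 48.8%, Hoxb 40.1%, Hoxd 10.2% and Hoxc 0.935%. The UMI-weighted mean of the paralog numbers was 2.68 in WT 1, 3.14 in Tbx1+/- 1, 2.69 in WT 2 and 2.66 in Tbx1+/- 2 (2.79 ± 0.231 SD, n = 4). Group 8 was the highest-numbered one with 3 or more UMIs in every PTB library.

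Hoxa2 had the most UMIs in annotated PTB nuclei, 401, or 37.5% of all Hox UMIs. Its gene lies at chr6:52162417-52164831 on the minus strand (mm10), and no annotated gene overlaps it. Its level was 3.38 CPM in WT 1, 2.59 in Tbx1+/- 1, 2.30 in WT 2 and 2.03 in Tbx1+/- 2, a mean of 2.57 ± 0.585 CPM (SD, n = 4). On the scale of CPM per kilobase of gene span, introns included, it was at 1.07, above Hoxb2 at 0.396, Hoxb4 at 0.0765 and Hoxb3 at 0.0375. HOX proteins bind DNA with PBX and MEIS cofactors, so the promoter of the most abundant member is shown with the letters of such sites. The 250 bases before the start of Hoxa2 (RefSeq, GRCm38.p6, chr6:52164832-52165081, minus strand) are printed 5′ to 3′, with a match to the PBX-HOX letters TGATNNAT (on the other strand, first base at −111) and a match to the MEIS letters TGACAG (first base at −44) in capitals.
Hoxa2: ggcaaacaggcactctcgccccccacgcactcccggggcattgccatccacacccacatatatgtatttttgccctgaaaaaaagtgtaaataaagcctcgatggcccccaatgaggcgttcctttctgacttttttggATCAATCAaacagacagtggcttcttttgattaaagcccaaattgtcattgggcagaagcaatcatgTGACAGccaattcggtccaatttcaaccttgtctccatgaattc
Counting both strands, TGATNNAT was in 7.68% of 32851 RefSeq promoter stretches of that length and in 4 of the 24 entries of Hox members (Hoxa2, Hoxb1, Hoxb8 and Hoxd11), and TGACAG was in 15.9% and in 2 of 24 (Hoxa2 and Hoxa3). The homeodomain letters TAATTA were in 4.84% of all and in 2 of the 24, both of Hoxd11. Of the 39 members, 22 had an entry, and Hoxb2 and Hoxb3 had none. A match is a description of the letters only.

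Hoxb2, the group 2 paralog of Hoxa2, followed with 211 UMIs. Its level was 1.42 CPM in WT 1, 1.33 in Tbx1+/- 1, 1.43 in WT 2 and 1.34 in Tbx1+/- 2 (1.38 ± 0.0509 SD, n = 4), the smallest spread for its size among the members named here for these nuclei. Hoxb3, its 5′ neighbour, had 145 UMIs at 1.17, 1.16, 0.477 and 0.886 CPM in the same order of libraries (0.922 ± 0.324 SD). WT 2 was the low library for Hoxb3, where the level was under that of the other 3 libraries. Hoxa3 had 63 UMIs and a mean of 0.405 ± 0.0748 CPM, but its span of 44.3 kb overlaps Hoxa4, Hoxa5 and Hoxa6 on the same strand, so reads could be split among them. Hoxb4, Hoxd8 and Hoxd3 had mean levels of 0.258 ± 0.0793, 0.254 ± 0.216 and 0.177 ± 0.141 CPM. Hoxd8 ranged from 0.0858 CPM in Tbx1+/- 2 to 0.542 CPM in Tbx1+/- 1, so the 2 Tbx1+/- libraries were its extremes. In all, 11 members overlap another gene on their own strand and 14 on the opposite strand. Whether the counting used strand was not stated in the sources used here.

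Levels differed between the PTB cell types. Summed over the 39 members, CT1 was highest at 15.1 CPM in WT 1, 13.7 in Tbx1+/- 1, 13.4 in WT 2 and 8.50 in Tbx1+/- 2 (12.7 ± 2.88 SD, n = 4), the last from 4 UMIs. The hypertrophic chondrocyte/Osteoblasts type was at 13.5, 9.78, 8.96 and 6.46 CPM in that order of libraries (9.68 ± 2.92). CT1 was above it in 4 of 4 libraries, by 2.98 ± 1.38 CPM (SD of the difference). Next came CT2 (7.74), CP1 (7.38), Osteoblasts (7.17), Matured chondrocyte (6.51), Matured osteoblasts/osteocyte (6.31), CT3 (6.01), CP6 (5.67), CP4 (5.16), Osteoclast (4.96), CP2 (4.64), CT4 (4.47), CP3 (3.75) and CP5 (3.32 CPM). From the hypertrophic type on, each neighbour in this order differed from the next by less than the SD of the difference. Since the types were clustered on these same nuclei, these differences are given without a test.

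**Figure D2:**
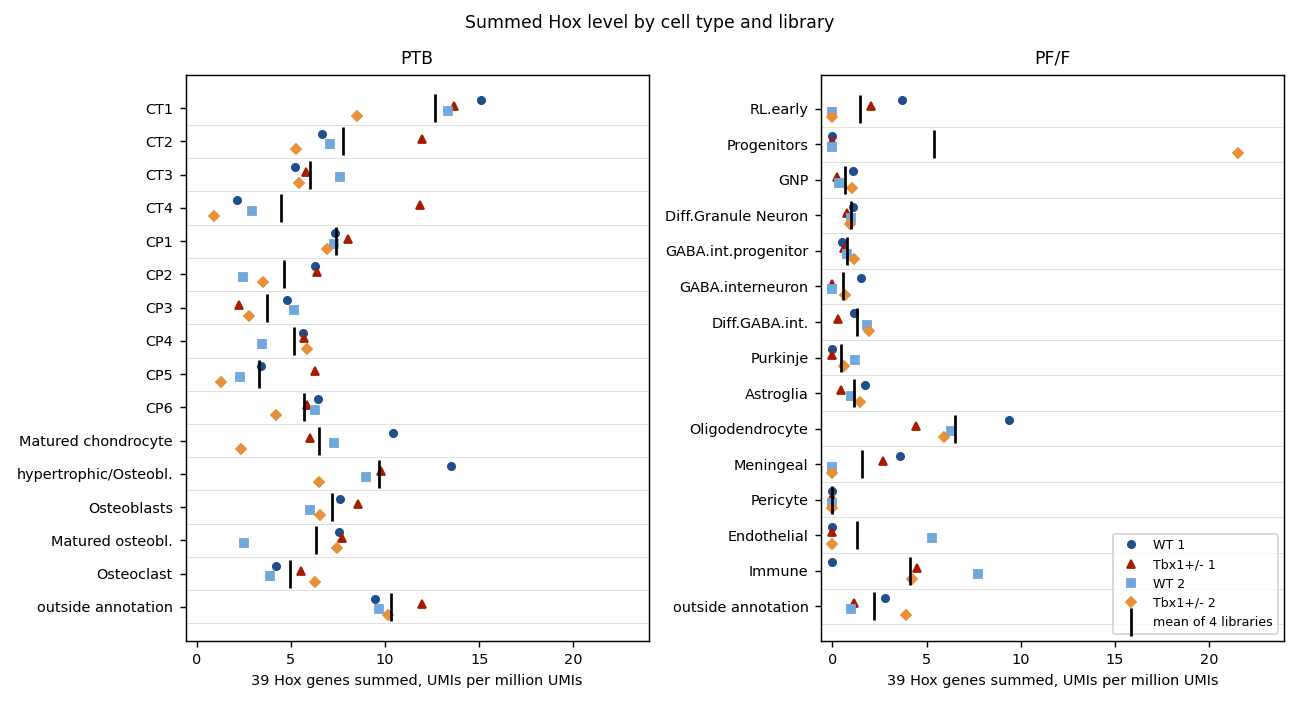
Summed level of the 39 Hox genes in CPM (x axis) for the annotated types and for barcodes outside the annotation (y axis), in the PTB (left) and, with 14 of the 16 types, the PF/F (right). Each symbol is 1 library, black bars are means of 4 libraries, and CT1 in the PTB and Oligodendrocyte in the PF/F stand to the right of the granule neuron and osteoclast types, while Progenitors rest on 1 library at 21.6 CPM.

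Osteoclasts served as the reference type, called background here, against which low levels are read. They held 52 Hox UMIs at 4.96 ± 1.13 CPM (SD, n = 4), of which Hoxa2 had 17, Hoxb3 9, Hoxb4 8 and Hoxb2 4. They also held fibroblast markers at 2979 to 6137 CPM, which CT1 held at 9013 to 12857 CPM, and osteoclast markers at 6728 to 9072 CPM, which CT1 held at 588 to 1182 CPM. The part of free RNA in either type was not tested. Hoxb4 made up 8 of the 52 Hox UMIs of osteoclasts, against 1 of 148 in CT1 and 40 of 1070 over annotated PTB nuclei. Hoxa2 had a like share, 32.7% in osteoclasts and 37.5% over annotated PTB nuclei. Whether osteoclasts have Hox RNA of their own was not tested, so their level is a reference and not a measure of free RNA. CT1 was above the osteoclasts in 4 of 4 libraries by 7.7 ± 3.82 CPM (SD), the hypertrophic type by 4.72 ± 3.75, CP1 by 2.43 ± 1.23 and Osteoblasts by 2.21 ± 1.41. The other 10 PTB types were not above them in every library. A Hox UMI was in 5.03% of CT1 nuclei (133 of 2643, median depth 3444 UMIs) and in 3.27% of osteoclasts (51 of 1559, median depth 5788 UMIs). Thinned to 2000 UMIs these were 2.92% of 2451 and 1.03% of 1522 nuclei, with 192 and 37 shallower nuclei left out. Without Hoxa2, CT1 alone of the PTB types remained above the osteoclasts in every library. Without the 8% of barcodes with the most UMIs, 8 PTB types were above them in every library, and likewise 8 without Tbx1+/- 2.

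The 4 types differed in which members they held. In CT1, a connective tissue type, Hoxa2 was at 4.90, 5.65, 1.91 and 2.12 CPM in WT 1, Tbx1+/- 1, WT 2 and Tbx1+/- 2, so both batch 1 libraries were above both of batch 2, which rest on 3 and 1 UMIs. Hoxb2 there was at 2.35, 1.19, 3.18 and 4.25 CPM, from 12, 4, 5 and 2 UMIs. Hoxd members held 20.3% of the Hox UMIs of CT1 (exact 95% interval 14.1 to 27.7%), with 11 UMIs of Hoxd3 and 7 each of Hoxd4 and Hoxd8. The Hox UMIs of CT1 numbered 77, 46, 21 and 4 in that order of libraries, so this share rests mostly on batch 1. Over the CT types together, Hoxd had 15, 17, 9 and 0 UMIs. CT1 also had the blood progenitor list (Kit, Cd34, Gata2, Mecom and Meis1) at 2816 to 4260 CPM, against 152 to 248 CPM in osteoclasts. The list is not particular to blood, since annotated PF/F nuclei held it at 810 to 923 CPM, with Meis1 alone at 697 to 812 CPM. Over annotated PTB nuclei the list summed to 375 to 861 CPM, with Meis1 at 66.5 to 191 CPM. Which gene led the sum in CT1 is not given here, so the sum does not show whether CT1 held blood progenitors. In CP1, chondrocyte progenitors, Hoxa2 was at 4.88, 4.70, 3.83 and 3.65 CPM (4.26 ± 0.616 SD, n = 4, 57 UMIs), while Hoxb2 had 11 UMIs and Hoxb3 had 5. The Hoxa cluster thus held 71.1% of the Hox UMIs of CP1 (61 to 79.9%) and Hoxd 5.15% (1.69 to 11.6%).

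In the hypertrophic type, which joins chondrocytes and osteoblasts, Hoxa2 was at 5.11, 2.16, 4.48 and 1.96 CPM and both Tbx1+/- libraries lay below both WT libraries. Hoxb3 was at 3.47, 3.15, 1.32 and 2.15 CPM there (54 UMIs) and its genotypes overlapped. Hoxb members held 51.5% of the Hox UMIs (44.3 to 58.6%). In Osteoblasts, the largest type, Hoxb2 had the most UMIs, 66, at 2.40, 1.97, 1.96 and 2.09 CPM (2.10 ± 0.203 SD, n = 4). Hoxa2, a shorter gene, had 63 UMIs there at 2.54, 1.65, 1.96 and 1.96 CPM.

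Barcodes outside the PTB annotation held more of the higher groups and of the Hoxd cluster. The summed level was 9.48, 12.0, 9.70 and 10.1 CPM in WT 1, Tbx1+/- 1, WT 2 and Tbx1+/- 2 (10.3 ± 1.13 SD, n = 4), above the annotated nuclei of the same library in each (8.11, 8.18, 5.85 and 5.35 CPM). Groups 2 and 3 held 68.1% of the 1505 Hox UMIs (exact 95% interval 65.7 to 70.5%) and groups 4 and 5 held 19.6% (17.6 to 21.7%). Hoxd held 25.9% (23.7 to 28.2%), against 10.2% (8.44 to 12.2%) in annotated nuclei. The intervals cover counting error only. The mean paralog number was 3.32, 3.54, 3.07 and 3.05, and in each library it was above that of the annotated nuclei.

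Hoxd4, Hoxd3 and Hoxd8 had more UMIs there than in annotated nuclei. Hoxd4, a group 4 member, was at 1.02, 0.923, 0.857 and 0.847 CPM (0.913 ± 0.0812 SD, n = 4, 135 UMIs), against 17 UMIs in annotated nuclei. Hoxd3 was at 0.913, 1.31, 0.562 and 0.502 CPM (123 UMIs against 28), with both batch 1 libraries above both of batch 2. In the GENCODE annotation the spans of Hoxd3 (chr2:74711927-74748442) and Hoxd4 (chr2:74711929-74729160) overlap on the plus strand, so their reads can be split between them. Hoxd8 was at 0.824, 0.783, 0.266 and 0.408 CPM (87 UMIs against 41), and again the batch 1 libraries were the higher. RefSeq places the start of Hoxd4 farther downstream. The 250 bases before the RefSeq starts of Hoxd4 (chr2:74721728-74721977, plus strand) and Hoxd8 (chr2:74704365-74704614, plus strand) are shown for comparison with Hoxa2, and the letters TGATNNAT, TGACAG and TAATTA were in neither window.
Hoxd4: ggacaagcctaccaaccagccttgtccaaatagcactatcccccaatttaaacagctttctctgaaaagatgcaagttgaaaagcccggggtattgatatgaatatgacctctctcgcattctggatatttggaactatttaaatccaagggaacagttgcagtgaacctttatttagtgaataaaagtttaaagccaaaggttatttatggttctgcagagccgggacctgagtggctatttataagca
Hoxd8: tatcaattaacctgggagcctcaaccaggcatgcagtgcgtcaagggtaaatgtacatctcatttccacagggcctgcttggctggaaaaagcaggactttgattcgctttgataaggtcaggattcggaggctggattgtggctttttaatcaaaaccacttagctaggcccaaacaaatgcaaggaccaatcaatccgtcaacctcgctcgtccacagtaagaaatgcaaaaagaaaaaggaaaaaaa
For Hoxa2 the level outside the annotation was 2.16, 2.35, 1.98 and 1.98 CPM (2.12 ± 0.177 SD), against a mean of 2.57 ± 0.585 CPM in annotated nuclei. Hoxb2 was at 1.49, 1.40, 1.21 and 1.76 CPM (1.46 ± 0.227), and Hoxb3 at 0.868, 1.79, 1.30 and 1.69 CPM (1.41 ± 0.421). Hoxa3 was at 0.757, 0.951, 1.89 and 1.38 CPM (1.25 ± 0.504, 176 UMIs), and Hoxb4 at 0.356, 0.587, 0.473 and 0.69 CPM. Batch 2 libraries were the higher for Hoxa3, the reverse of Hoxd3 and Hoxd8.

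These barcodes were then grouped by markers, counting a barcode for the list of which it held the most, at least 3 marker UMIs. Fibroblast-marked barcodes (24568) held 955 Hox UMIs, 63.5% of those outside the annotation, close to their 61.8% of all UMIs, at 10.6 CPM (exact Poisson 95% interval 9.9 to 11.2). Neuron-marked barcodes (2070) held 277 Hox UMIs at 11.9 CPM (10.5 to 13.4). Of the latter, 82.3% were of groups 2 and 3 (77.3 to 86.6%) and 10.5% of Hoxd (7.12 to 14.7%), while fibroblast-marked barcodes had 66.0% (62.9 to 69.0%) and 28.6% (25.7 to 31.6%). Neuron-marked barcodes had no UMI of groups 9 to 13, which allows a share of up to 1.32% of their Hox UMIs. Endothelial-marked barcodes (656) were at 19.0 CPM (14.6 to 24.2), with 40.6% of Hoxd. Muscle-marked ones (227) were at 19.3 CPM (12.4 to 28.7) with 54.2% of Hoxd, and those marked by the blood progenitor list (212), which includes the Hox cofactor gene Meis1, were at 17.9 CPM (11.7 to 26.2). The last 2 groups rest on 24 and 26 Hox UMIs, and of the 26, WT 1 held 14, without which the level was 9.78 CPM. Osteoclast-marked barcodes were at 8.97 CPM (6.1 to 12.7), Schwann-marked at 5.87, osteoblast-marked at 6.29, meningeal-marked at 3.33 and chondrocyte-marked at 3.13 CPM (2.06 without Tbx1+/- 2).

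**Figure D3:**
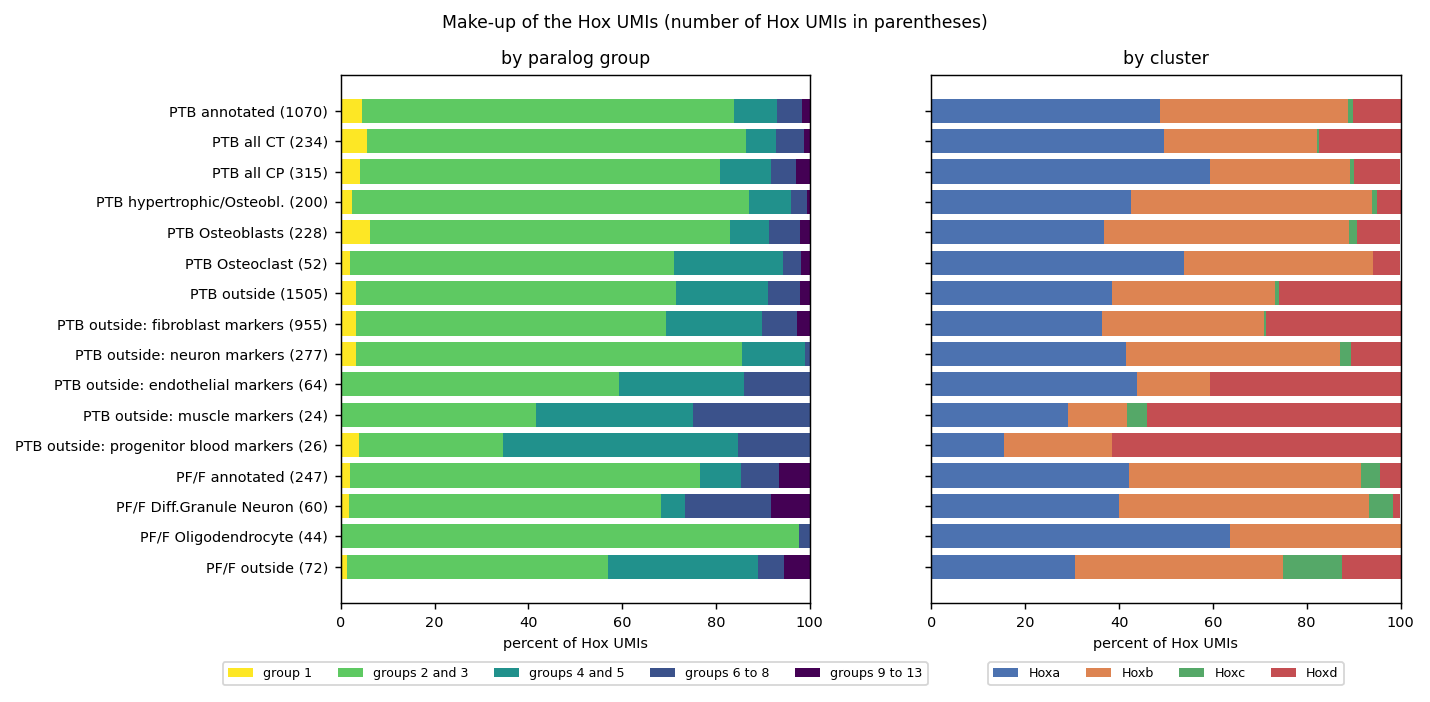
Share of Hox UMIs in percent (x axis) by paralog group (left) and by cluster (right), for annotated nuclei, single types and marker groups outside the annotation (y axis, number of Hox UMIs in parentheses). Groups 2 and 3 hold most UMIs in annotated PTB nuclei (79.3%) and nearly all in Oligodendrocyte (97.7%), and Hoxd grows from 10.2% in annotated to 25.9% in other PTB barcodes.

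Single barcodes seldom held more than 1 member. Of the 993 annotated PTB nuclei with a Hox UMI, 31 held 2 or more members, and of the 1233 PTB barcodes outside the annotation 113 did, 23 of them with 3 or more. Counted over pairs of members in 1 barcode, 100 of 202 pairs (49.5%) outside the annotation were of the same cluster, and 11 of 33 (33.3%) in annotated nuclei. Neighbours led outside the annotation: Hoxb2 with Hoxb3 in 15 barcodes, Hoxb3 with Hoxb4 in 13, Hoxd3 with Hoxd4 in 12 and Hoxd4 with Hoxd8 in 10. Across clusters, Hoxa2 was found with Hoxb3 in 9 and with Hoxb2 in 7 barcodes. The most Hox UMIs in a PTB barcode were 11, from 7 members, in Tbx1+/- 2, in a barcode of 64125 UMIs. Doublets were not removed here, and depth differs between barcodes.

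In the PF/F most types were near 1 CPM. Diff.Granule Neuron was at 0.963 ± 0.141 CPM and granule neuron progenitors (GNP) at 0.678 ± 0.44 CPM, Purkinje cells at 0.453 and Astroglia at 1.15 CPM. Against these, Oligodendrocyte was at 9.38, 4.44, 6.31 and 5.95 CPM in WT 1, Tbx1+/- 1, WT 2 and Tbx1+/- 2 (6.52 ± 2.07 SD, n = 4). It was above Diff.Granule Neuron in 4 of 4 libraries, by 5.56 ± 1.94 CPM (SD of the difference), and above GNP in 4 of 4, also with nuclei of at least 2000 detected genes. A Hox UMI was in 2.4% of 1624 Oligodendrocyte nuclei (median depth 3494 UMIs) and in 0.323% of Diff.Granule Neuron nuclei (59 of 18286, median depth 2973 UMIs). Thinned to 2000 UMIs the shares were 1.44% of 1496 and 0.182% of 15649 nuclei.

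Oligodendrocyte held almost only groups 2 and 3. It had 44 Hox UMIs, 97.7% of groups 2 and 3 (exact 95% interval 88.0 to 99.9%), with Hoxa2 at 5.73, 2.22, 4.73 and 2.97 CPM (26 UMIs), Hoxb2 with 10 and Hoxb3 with 6 UMIs, and Hoxa held 63.6% (47.8 to 77.6%). It had oligodendrocyte markers at 2369 to 3267 CPM and fibroblast markers at 430 to 658 CPM, against 59 to 74 in Diff.Granule Neuron. Brainstem neuron markers, among them Slc17a6, Slc6a5, Chat, Isl1 and Tph2, summed to 50 to 65 CPM in Oligodendrocyte, with Chat and Tph2 at 0, and to 276 to 297 CPM in Diff.Granule Neuron. The part of these markers' cells in the Hox levels was not tested. Diff.Granule Neuron held more of the brainstem neuron list than Oligodendrocyte, so the sum does not single out brainstem cells in the PF/F. A list of neuron genes also cannot show where nuclei of the Oligodendrocyte type came from.

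Other PF/F types with Hox RNA rested on few nuclei. Progenitors had 14 Hox UMIs in 4 of 152 nuclei, all in Tbx1+/- 2 (21.6 CPM, with 0 in the other 3 libraries), led by Hoxb3 and Hoxd4 with 4 UMIs each. Their brainstem neuron markers summed to 160 to 266 CPM, with Chat, Isl1 and Tph2 at 0. Pericytes had 0 Hox UMIs of 216921, which allows up to 17.0 CPM by an exact Poisson interval. Over all annotated PF/F nuclei, Hoxa2 was at 0.617, 0.289, 0.451 and 0.284 CPM, Hoxb2 at 0.308, 0.169, 0.318 and 0.359 CPM, and Hoxb3 at 0.356, 0.169, 0.265 and 0.34 CPM. The 16 UMIs of groups 9 to 13 made up 6.48% of the PF/F Hox UMIs (3.75 to 10.3%), including 9 UMIs of Hoxb9, and these were spread over libraries at 0.0241 to 0.0756 CPM. Hoxa7, with 12 UMIs, was at 0.0378 to 0.12 CPM. In annotated PF/F nuclei no group above 3 had 3 or more UMIs in every library.

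Outside the PF/F annotation, 72 Hox UMIs gave 2.77, 1.14, 1.00 and 3.88 CPM in WT 1, Tbx1+/- 1, WT 2 and Tbx1+/- 2. Groups 4 and 5 held 31.9% of them (21.4 to 44.0%) and groups 2 and 3 held 55.6% (43.4 to 67.3%). Neuron-marked barcodes (2699) held 56 of the 72, with 17, 4, 6 and 29 in these libraries. Hoxb2 was at 0.221, 0.114, 0.428 and 0.777 CPM, and Hoxb3 at 0.996, 0, 0 and 0.388 CPM. A single barcode of Tbx1+/- 2 held 12 Hox UMIs of 8 members from all 4 clusters, and 1 of WT 1 held 8 UMIs of 4 members. The intervals of the shares take UMIs as independent, so with several UMIs in the same barcode they are too narrow. The share of neuron-marked barcodes in all UMIs is not given here, so their 56 are a count only.

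The tissues were compared on UMIs summed per library with edgeR's quasi-likelihood test, calling a gene at a Benjamini-Hochberg adjusted p under 0.05 and a change above 1.5-fold. Hoxa2 was higher in annotated PTB than PF/F nuclei by 2.67 ± 0.236 (log2, SE, n = 4 against 4, edgeR adjusted p = 5.77e-06), and its 4 PTB libraries (2.03 to 3.38 CPM) did not overlap the 4 PF/F libraries (0.284 to 0.617 CPM). Hoxb2 was higher by 2.21 ± 0.236 (edgeR adjusted p = 2.14e-05), Hoxa3 by 2.79 ± 0.488 (edgeR adjusted p = 0.000596) and Hoxb3 by 1.68 ± 0.356 (edgeR adjusted p = 0.00193). In these sums, fewer nuclei with a gene and less RNA per nucleus cannot be told apart. The libraries of the tissues did not overlap for Hoxb2 or for Hoxa3, and for Hoxb3 the lowest PTB library, at 0.477 CPM, was above the highest PF/F library, at 0.356 CPM. The share of all genes whose libraries do not overlap between the tissues was not counted, so these separations are description only. Hoxa2, Hoxb2, Hoxa3 and Hoxb3 were the 4 members that passed the filter on low counts. Of them 4 of 4 were called, beside 28.0% of the 21176 genes tested that were called higher in the PTB. A member that passes the filter through the PTB libraries alone had to differ, so this count carries no weight. This was so for Hoxa3, which did not pass the filter in the PF/F libraries alone, and its call and p-value have the same limit. With no filter, 11 of 30 members with a UMI were called higher in the PTB and 0 lower, beside 23.7% of 28825 genes. Among the further 7 were Hoxa4, Hoxb4, Hoxb5, Hoxd1, Hoxd3 and Hoxd8. Hoxd1, a group 1 member, had 15 UMIs in the PTB and 0 in the PF/F, 5.7-fold higher against a floor of 3 UMIs over the pool. This ratio leaves out the counting error of the 15 UMIs and is not a lower limit. Hoxd4 (17 UMIs in the PTB, 6 in the PF/F) and Hoxb9 (3 and 9) were not called.

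For barcodes outside the annotation the tissues hold different cells, since the deposited PTB annotation covers skeletal types only. Hoxa2 was higher in the PTB by 3.03 ± 0.386 (edgeR adjusted p = 0.00015), Hoxd4 by 2.48 ± 0.481 (edgeR adjusted p = 0.00172), Hoxd3 by 3.59 ± 0.808 (edgeR adjusted p = 0.00391), Hoxb2 by 1.91 ± 0.434 (edgeR adjusted p = 0.00407), Hoxa3 by 2.65 ± 0.783 (edgeR adjusted p = 0.0155) and Hoxb3 by 1.84 ± 0.718 (edgeR adjusted p = 0.0484). For Hoxb3 the tissues overlapped, with PF/F WT 1 at 0.996 CPM above PTB WT 1 at 0.868 CPM, and its call was lost with barcodes of at least 2000 detected genes and without PF/F Tbx1+/- 1, PF/F WT 2 or PF/F Tbx1+/- 2. The call of Hoxa3 was lost without PF/F WT 1. No member passed the filter on low counts in the PF/F barcodes outside the annotation alone, so the 6 named here passed through the PTB libraries. Their calls and p-values therefore carry no weight, and the values describe levels only. All 6 members tested were called, beside 27.5% of 20104 genes, with the same limit on the count. With no filter it was 8 of 26 members, beside 22.7% of 28511 genes, with Hoxb4 and Hoxd8 added. Hoxd8 had 87 UMIs in the PTB and 0 in the PF/F, 6.46-fold higher against the floor, with the counting error of the 87 UMIs left out. Leaving out any 1 of the 4 PTB libraries left 2 or 3 members past the filter on low counts, all of them called, and leaving out the 8% of barcodes with the most UMIs left 2, both called.

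The study's own comparison is Tbx1+/- against WT, and no Hox member was called in it, in any pool or type. In annotated PTB nuclei 0 of 6 members tested passed, beside 0% of 20250 genes, and 0 of 6 had an unadjusted p under 0.05, beside 1.07% of genes. The median log2 difference of these 6 was −0.0919, and that of all genes −0.00297. Hoxa2 differed by −0.305 ± 0.292 (log2, SE, n = 2 against 2, edgeR adjusted p = 1) and Hoxb4 by −0.556 ± 0.461 (edgeR adjusted p = 1). Hoxa2 was lower in Tbx1+/- within each batch, at 2.59 against 3.38 CPM in batch 1 and 2.03 against 2.30 CPM in batch 2. With the replicate number as a block the difference was −0.296 ± 0.192 (edgeR adjusted p = 0.968). CT1, the type with the highest summed level, made up 1315 of 9977 annotated nuclei in WT 1 and 878 of 8704 in Tbx1+/- 1. In batch 2 it made up 332 of 5981 in WT and 118 of 6414 in Tbx1+/-. In sums over several types, the share of a type and the level per nucleus cannot be told apart. For Hoxb4 both Tbx1+/- libraries (0.271 and 0.143 CPM) were below both of WT (0.32 and 0.298 CPM), and likewise for Hoxb2 (1.33 and 1.34 against 1.42 and 1.43 CPM), which differed by −0.0928 ± 0.239 (edgeR adjusted p = 1). Hoxd8 differed by 0.662 ± 0.933 (edgeR adjusted p = 1). Outside the annotation 0 of 8 members passed, beside 0% of 21166 genes, and 0 had an unadjusted p under 0.05, beside 0.581%. Hoxb3 there was at 0.868 and 1.30 CPM in WT and at 1.79 and 1.69 CPM in Tbx1+/-, without overlap, a difference of 0.682 ± 0.329 (edgeR adjusted p = 1). Hoxb4 likewise did not overlap (0.356 and 0.473 against 0.587 and 0.69 CPM) and differed by 0.616 ± 0.38 (edgeR adjusted p = 1), the reverse of its direction in annotated nuclei. Hoxb2 differed by 0.199 ± 0.325. The share of all genes whose libraries do not overlap between the genotypes was not counted, so these separations are description only.

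Hoxb5, a group 5 member with too few UMIs to pass the filter, was seen in Tbx1+/- libraries only, and is named here after its values were seen. Its UMIs in WT 1, Tbx1+/- 1, WT 2 and Tbx1+/- 2 numbered 0, 15, 0 and 3 in annotated PTB nuclei, and 0, 18, 0 and 5 outside the annotation. These UMIs were in 15 and 3 annotated nuclei and in 16 and 5 barcodes outside the annotation, and both PF/F libraries of Tbx1+/- held 1 UMI each and those of WT none. Against a floor of 3 UMIs over the 2 WT libraries, the pooled Tbx1+/- level was 6.14-fold higher in annotated nuclei (0.238 CPM). Outside it was 8.93-fold higher (0.34 CPM). Both ratios leave out the counting error of the Tbx1+/- UMIs. Most of the Hoxb5 level rests on Tbx1+/- 1, and without that library 3 annotated UMIs are no more than the floor. With no filter on low counts Hoxb5 was not called, with an edgeR adjusted p = 1 both in annotated nuclei (unadjusted p = 0.00992) and outside (unadjusted p = 0.00852). In that fit 2 of 28 members had an unadjusted p under 0.05 in annotated nuclei, beside 1.24% of genes, the other being Hoxb1 with 4 and 2 UMIs in Tbx1+/- and 0 in WT. Outside the annotation Hoxb5 was the 1 member of 25, beside 0.693%. Of the 27554 features with a UMI in annotated PTB nuclei, 61 had none in WT, a UMI in both Tbx1+/- libraries and more than 3 in all, and 55 had the reverse. Outside the annotation these were 33 and 63 of 28128. With at least as many UMIs as Hoxb5 in the genotype that had them, they were 1 (Hoxb5 itself) and 0 in annotated nuclei, and 2 (Hoxb5 included) and 2 outside. This cut is the count of Hoxb5 itself, so Hoxb5 meets it by construction and its place among the features carries no weight. Hoxb5 overlaps Hoxb5os on the opposite strand.

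**Figure D4:**
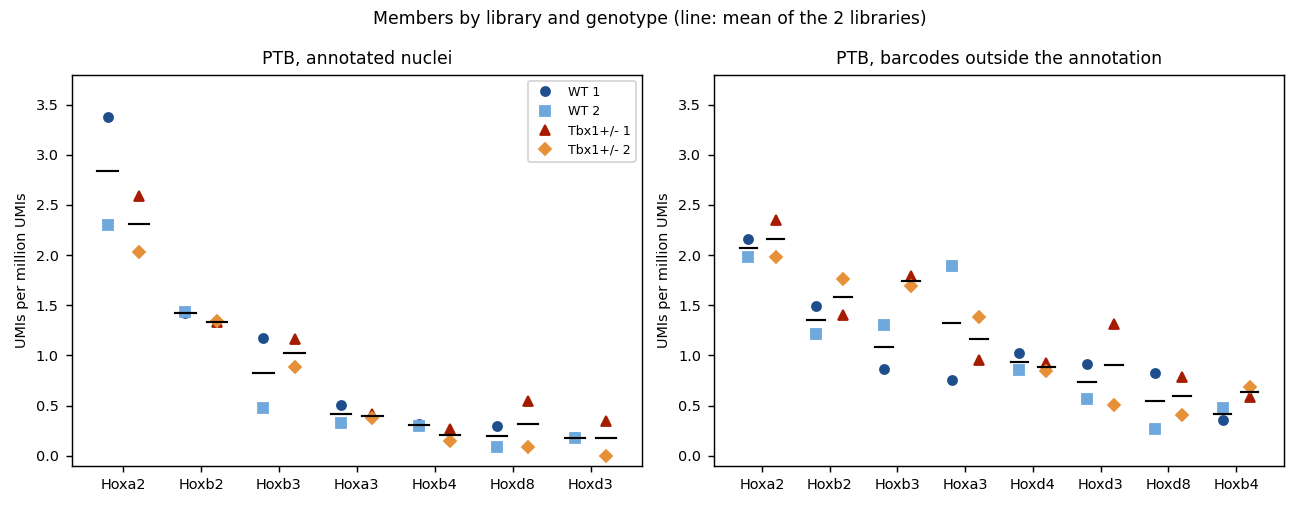
Level in CPM (y axis) of the members with the highest mean (x axis), 7 in annotated PTB nuclei (left) and 8 in barcodes outside the annotation (right). Each symbol is 1 library and each line the mean of 2 libraries of a genotype, and WT and Tbx1+/- libraries overlap for most members. Apart are Hoxb2 and Hoxb4 in annotated nuclei, both lower in Tbx1+/-, and Hoxb3 and Hoxb4 outside the annotation, both higher, none of them called. With 2 libraries against 2, genes can lie apart by chance alone, and the share of all genes apart in this way was not counted.

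By cell type, 7 pairs of a member and a PTB type could be tested, and 0 were called, beside 0% of 187198 pairs of a gene and a type. Hoxa2 in the hypertrophic type had the largest difference, −1.23 ± 0.374 (edgeR unadjusted p = 0.0136, adjusted p = 1), and it was the 1 pair of 7 with an unadjusted p under 0.05, beside 1.81% of all pairs. Its levels were 5.11 and 4.48 CPM in WT and 2.16 and 1.96 CPM in Tbx1+/-. In the other types tested, Hoxa2 differed by 0.33 ± 0.593 in CT1, −0.0741 ± 0.41 in CP1 and −0.334 ± 0.395 in Osteoblasts. Pooled over the 6 CP types, 0 of 2 members passed, beside 0% of 17894 genes, and 0 of 2 at an unadjusted p under 0.05, beside 0.838%. Pooled over the 4 CT types, 0 of 2 passed, beside 0% of 15889 genes. Hoxb2 there was at 2.15 and 2.93 CPM in WT (18 and 16 UMIs) and at 1.06 and 0.752 CPM in Tbx1+/- (7 and 3 UMIs; −1.40 ± 0.489, edgeR unadjusted p = 0.0309, adjusted p = 1), beside 0.894% of genes at an unadjusted p under 0.05. In CT1 alone the genotypes overlapped for Hoxb2, which was highest in Tbx1+/- 2, at 4.25 CPM from 2 UMIs.

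In annotated PF/F nuclei 0 of 3 members passed, beside 0% of 20756 genes. Hoxa2 was at 0.617 and 0.451 CPM in WT and at 0.289 and 0.284 CPM in Tbx1+/-, and differed by −0.882 ± 0.337 (edgeR unadjusted p = 0.0458, adjusted p = 1). It was the 1 member of 3 with an unadjusted p under 0.05, beside 0.477% of genes. Hoxb2 and Hoxb3 differed by −0.188 ± 0.462 and −0.238 ± 0.466. In PF/F barcodes outside the annotation and in single PF/F types no member passed the filter on low counts, and 0% of 17233 genes and 0.000619% of 161523 pairs of a gene and a type were called. DESeq2 called 0 members in these comparisons and gave 0 members an unadjusted p under 0.05. A test of whether the genotype difference itself differed between tissues called 0 of 6 members in annotated nuclei, beside 0% of 22148 genes, and 0 of 8 outside the annotation, beside 0% of 21197. None of these members had an unadjusted p under 0.05, beside 0.899% and 0.760% of genes. With 2 libraries against 2, an exact permutation test cannot give a p below 0.33.

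Genes around the Hox network were compared between the tissues in the same fit. The numbers are for annotated nuclei, calling by the same rule, beside 28.0% of genes called higher and 32.4% called lower in the PTB and a median log2 difference of −0.0551 over all genes. Of the non-coding RNAs of the Hox loci, 4 of the 19 could be tested, and these were higher in the PTB: Hoxaas2 by 3.79 ± 0.175 (edgeR adjusted p = 6.5e-08), Hoxb3os by 2.68 ± 0.318 (edgeR adjusted p = 4.47e-05), Hotairm1 by 1.88 ± 0.199 (edgeR adjusted p = 2.04e-05) and Halr1 by 1.80 ± 0.306 (edgeR adjusted p = 0.000492). As for the Hox members, a gene that passes the filter through 1 tissue alone had to differ, so this count carries no weight. In the PF/F libraries alone 3 of the list passed the filter. Halr1 was the lowest of the 4 there, at 0.0722 to 0.212 CPM, and its call and p-value have the same limit. Hoxaas2 was at 4.15 to 5.92 CPM over the PTB libraries, and it overlaps Hoxa3 on the opposite strand. Of the 12 retinoic acid genes tested, which act upstream of Hox genes, 9 were higher and 2 lower (median 2.61). In the PF/F libraries alone 11 of the list passed the filter, so the count of genes higher has the same limit in part. The receptors Rarg and Rarb were higher by 4.34 ± 0.127 and 3.44 ± 0.108, and Cyp26b1, which degrades retinoic acid, differed by −3.97 ± 0.103. Of the 9 TALE cofactor genes, 5 were higher and 3 lower (median 0.611), with Pknox2 at 1.16 ± 0.0904, Pknox1 at −0.686 ± 0.062 and Pbx4 at −2.26 ± 0.101.

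Of the 4 upstream factor genes tested, 2 were higher and 1 lower. Egr2, which acts on Hoxa2 and Hoxb2 in the hindbrain, was higher by 1.98 ± 0.254, and Fgf8 differed by −4.36 ± 0.285. Fgf8 was at 0.0895 to 0.229 CPM over the PTB libraries and passed the filter through the PF/F libraries, so its direction has the same limit. Of 20 Polycomb, Trithorax and related chromatin genes, which keep Hox genes silent or active, 1 was higher, 4 were lower and the other 15 were not called (median 0.0886), with Phc1 at −0.696 ± 0.0706, Cbx8 at −0.875 ± 0.108 and Phc2 at 0.51 ± 0.0726, the last not past the fold. The 5 other homeobox genes tested were lower in the PTB, a count with the same limit, since En2 and Gsx1 were near 0 there and passed the filter through the PF/F libraries. En2, which marks the midbrain and anterior hindbrain, and Otx2 differed by −7.71 ± 0.232 and −6.46 ± 0.164, and Gsx1 by −4.36 ± 0.415. Otx2 was at 62.2 to 76 CPM over the PF/F libraries. En2 was at 0.0247 to 0.0895 CPM over the PTB libraries. The genes named from these last 5 lists had edgeR adjusted p-values from 2.18e-09 to 0.000151. In the genotype comparisons no gene of these lists was called.

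Over the 15 annotated PTB types, the genes whose mean level most resembled the summed Hox level, by Pearson correlation of log2(mean CPM + 1) among 13126 genes at 10 CPM or more in a type, were Abca8a (0.884), Zfp503 (0.857), Asah2 (0.828), Col5a1 (0.819) and Nradd (0.807). Abca8a ranged from 12.4 CPM in CP5 to 117.5 CPM in CT1, and Col5a1, a fibrillar collagen chain, from 70.3 CPM in osteoclasts to 360 CPM in CT1. The values describe 15 types that share libraries and depth.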

How the data were processed

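Nuclei of the petrous temporal bone (PTB) and of the paraflocculus and flocculus (PF/F) of WT and Tbx1+/- mice were sequenced in 8 droplet libraries. The authors counted reads with Cell Ranger 7.0.0 against mm10, introns included, and deposited whole-number UMI counts for each gene in each barcode. These do not include the authors' later filters or their correction for free RNA, so low levels may hold free RNA. The authors' deposited annotation gave the cell types. No barcode was removed here, doublets included.

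UMIs were summed per library over each type, over all annotated nuclei and over the barcodes outside the annotation, with Python 3.11.15, numpy 2.4.6, pandas 2.3.3 and scipy 1.17.1, and levels are in counts per 1000000 UMIs. Exact intervals at 95% and the floor of 3 counts cover counting error only. Coordinates are from GENCODE vM21 (GRCm38, which is mm10), and promoter letters from RefSeq (GRCm38.p6). A barcode outside the annotation was placed by the marker list with the most UMIs, at least 3 and without a tie.

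Sums were compared in R 4.3.3 by the quasi-likelihood test of edgeR 4.0.16, after filterByExpr and with TMM factors, on all genes, with Benjamini-Hochberg adjustment, and types with at least 20 nuclei in every library were tested. The tissue fit had genotype as a term. Standard errors were obtained from each log2 difference and its F statistic (difference over root F). The tests were first run on simulated data with known changes. The alternatives tried were DESeq2 1.42.0, RLE factors in edgeR, genes tested without the low-count filter, the replicate number as a block, barcodes with at least 2000 detected genes, leaving out the 8% of barcodes with the most UMIs, other marker minimums, leaving out the leading member, and leaving out each library in turn. With a library gone, the single one that remained in its group was assumed to vary like the others. The p-values measure the spread between libraries of pooled mice, not between mice.

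The study used 2 batches of animals, and the replicate number was taken as the batch. Deviations of the WT and the Tbx1+/- library of a batch from their group means had a correlation across genes of 0.55 in annotated PTB nuclei, 0.5 in PTB barcodes outside the annotation, 0.845 in annotated PF/F nuclei and 0.687 in PF/F barcodes outside it.

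The members, gene lists and tests were chosen with earlier results of these data known. Values in every library were given for the up to 8 members with the highest mean in each pool, the members called and up to 3 with the smallest p per comparison, and for types the members with the most UMIs. Partner genes named were up to 3 per list with the smallest p, and Halr1 was added after its value was seen because it completes a count of 4. Hoxb5 and Hoxb1 in the genotype comparison, and the levels of marker groups without 1 library, were likewise added after their values were seen. Some genes and PF/F types that these rules name are not reported here.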

Additional observations from a re-analysis of the deposited data

Results flagged for a closer look

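Of 80 values over the 4 libraries of a tissue, the summed Hox level and the mean paralog number of pools and types, 6 had 1 library far from the other 3 by Dixon's ratio of gap to range, which chance gives in about 1 of 20 groups. The summed level in CP4 was 3.46 CPM in PTB WT 2, and in Matured osteoblasts/osteocyte it was 2.52 CPM in the same library, each below the other 3 libraries. In PF/F Progenitors it was 21.6 CPM in Tbx1+/- 2, from 14 UMIs in 4 nuclei, with 0 in the other 3. In PF/F Endothelial nuclei it was 5.29 CPM in WT 2, which is 1 UMI. The mean paralog number of annotated PTB nuclei was 3.14 in Tbx1+/- 1, against 2.66 to 2.69 in the other 3 libraries. That of PF/F Oligodendrocyte nuclei was 2.83 in Tbx1+/- 1.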

How the results depend on the processing

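The replicate block changed no call of a Hox member, but among all genes the genotype comparison called 71 pairs of a gene and a type in the PTB, 60 in the PF/F and 24 genes over all CT types with the block, and 0, 1 and 0 without it. With no filter on low counts these were 96, 31 and 1, DESeq2 called 2 in PF/F types, and without 1 library they ranged from 29 to 613 in PTB types and from 20 to 236 in PF/F types. Outside the PF/F annotation 28 genes were called without WT 1 and 78 without WT 2. Members called higher in the PTB numbered 4 in annotated nuclei and 11 with no filter. Outside the annotation they numbered 6, and 2 without the 8% of barcodes with the most UMIs, 2 to 7 without 1 library. Types above the background types in every library numbered 6, and 10 without the 8% of barcodes with the most UMIs, 3 without Hoxa2, 5 with at least 2000 detected genes, and 6 to 10 without 1 library. With no filter more members were tested, and the cause of the other changes was not tested.

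None of the genotype differences of members was called, and 17 values turned sign. Hoxb2 outside the PTB annotation was at −0.12 with at least 2000 detected genes, and Hoxa2 in CP1 at 0.16 without the 8% of barcodes. Without 1 library the log2 difference ran, in annotated PTB nuclei, from −0.55 to 0.019 for Hoxa2 and from −1.21 to 1.82 for Hoxd8. It ran from −0.0024 to 0.503 for Hoxa2 in CT1, from −0.28 to 0.15 for Hoxa2 in CP1, from −0.17 to 1.32 for Hoxb2 and from −0.39 to 1.00 for Hoxb3 in the hypertrophic type, and from −0.27 to 0.03 for Hoxb2 in Osteoblasts. Over all CP types it ran from −0.499 to 0.028 for Hoxa2 and from −0.25 to 0.77 for Hoxb2, and over all CT types from −0.43 to 0.81 for Hoxa2. In annotated PF/F nuclei it ran from −0.87 to 0.203 for Hoxb2 and from −0.86 to 0.13 for Hoxb3. The other 171 genotype values of members kept their direction. Of the tissue differences of members, 114 kept their call and 5 lost it, 1 for Hoxa3 and 4 for Hoxb3, all outside the annotation. The depth, at a floor of 0.0172 to 0.0921 CPM per pool, kept most members from being tested.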
